A study of Mus musculus with 2 samples.

Results

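The cells described here are the B cells among the cells of MC38 tumours. Members were selected on measured values. A cell was a member when Cd79a, Cd79b and Ms4a1 together had at least 3 UMIs (unique molecular identifiers, each 1 captured transcript), Cd3d, Cd3e and Cd3g together had 0, Ncr1 had 0 and Lyz2 had at most 2. The rule found 1573 members among 10720 cells, of which 1502 came from 1 library and 71 from the other. B cells carry an antigen receptor made of immunoglobulin heavy and light chains, and Cd79a and Cd79b encode the chains that pass its signal into the cell. They take up antigen through that receptor and show it to T cells on MHC class II. After activation some enter germinal centres, where they divide, switch the class of their heavy chain and alter their receptor genes, and some become plasma cells, which secrete antibody.

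MC38, a mouse colon carcinoma line, had been injected into the back of C57BL/6 mice. Gavage with DFMO, an inhibitor of the polyamine enzyme ornithine decarboxylase, or with water began at day 7 and lasted 14 days, 2 times a day by the sample protocol and daily by the series text. Tumours were digested, immune cells were enriched by a Ficoll step, and cells of 4 mice per group were pooled into 1 single-cell 5' library per group. The animals' ages and the share of each animal in a pool were not analysed here.

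With 1 library per group, no difference between DFMO and water has a replicate check, and no p-value was made. Every interval printed is at 95% and covers counting error alone: exact Poisson for CPM (a gene's UMIs in the summed cells, scaled to a total of 1000000), exact Clopper-Pearson for shares and exact conditional binomial for log2 ratios. The DFMO library held 4472 cells and 23588037 UMIs, and the water library 6248 cells and 59748244 UMIs, with a median of 2232 and 6475 UMIs per cell. The matrix held 0 mitochondrial and 0 ribosomal protein genes. The libraries shared 37 cell barcodes, 16 members had one of them, and 1 barcode was a member in both libraries.

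Members were 33.6% of the DFMO cells (1502 of 4472, 32.2 to 35.0) and 1.14% of the water cells (71 of 6248, 0.889 to 1.43). The share came with other differences between the libraries, such as their depth, and how many cells of each kind were lost in preparation was not tested. A DFMO member had between 637 and 31939 UMIs, with a median of 1773.5, and a water member between 758 and 21015, with a median of 1576. The 3 rule genes summed to a median of 21 UMIs in a DFMO member and 16 in a water member. Few cells lay near the limit of 3 UMIs. Just inside it, with 3 or 4 UMIs, were 5 DFMO and 2 water cells, and 4 and 2 of them also had Fcer2a or Fcmr, which were not part of the rule. Just outside, 14 DFMO and 40 water cells had 1 or 2 UMIs and met the other limits, and 0 and 1 of them had Fcer2a or Fcmr. A further 94 DFMO and 14 water cells had at least 3 UMIs but failed another limit. In DFMO 85 of these had Cd3 UMIs, 7 had Ncr1 and 2 had too much Lyz2, and in water the counts were 4, 2 and 11, where some cells failed more than 1 limit.

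The label was checked on genes outside the rule. Fcer2a, the low-affinity receptor for IgE (ENSMUSG00000005540, GRCm38 chromosome 8, 3681737 to 3694175), stood at 940.2 CPM in the DFMO members and was seen in 80.0% of them. In the T-rule cells of the same library (at least 3 Cd3 UMIs, none of the 3 B cell rule genes and at most 2 Lyz2 UMIs, 1637 cells) Fcer2a had 0 UMIs, which allows up to 0.552 CPM. Fcmr, the receptor for IgM (ENSMUSG00000042474, chromosome 1, 130865669 to 130880791), stood at 1599 CPM in 91.4% of the DFMO members, at a median of 1773.5 UMIs per cell, and at 0.92 CPM in 0.244% of the T-rule cells, at a median of 2140 UMIs. After each cell was thinned to 1000 UMIs, which left out 36 DFMO members, 61.7% of members had Fcer2a and 77.7% had Fcmr. In the water members, at a median of 1576 UMIs, the unthinned shares were 56.3% and 73.2%. Thinned to 1000 UMIs, which left 62 water members, they were 40.3% (28.1 to 53.6) and 54.8% (41.7 to 67.5). Set against the other cells of the DFMO library, the highest ratios outside the rule genes included those of Jchain, which joins antibody units (log2 ratio 11.45), Mef2b (7.21), a factor of germinal centre B cells, Mzb1 (6.88), Srpk3 (6.75), Fcmr (6.68) and Vpreb3 (6.65). These ratios compare chosen cells with the rest and are a description. Jchain and Mef2b came from few members: Jchain had UMIs in 29 of 1502, with 866 and 604 of its 1833 UMIs in 2 cells, and 212 of the 242 Mef2b UMIs were in the 29 germinal centre cells described below.

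**Figure D1:**
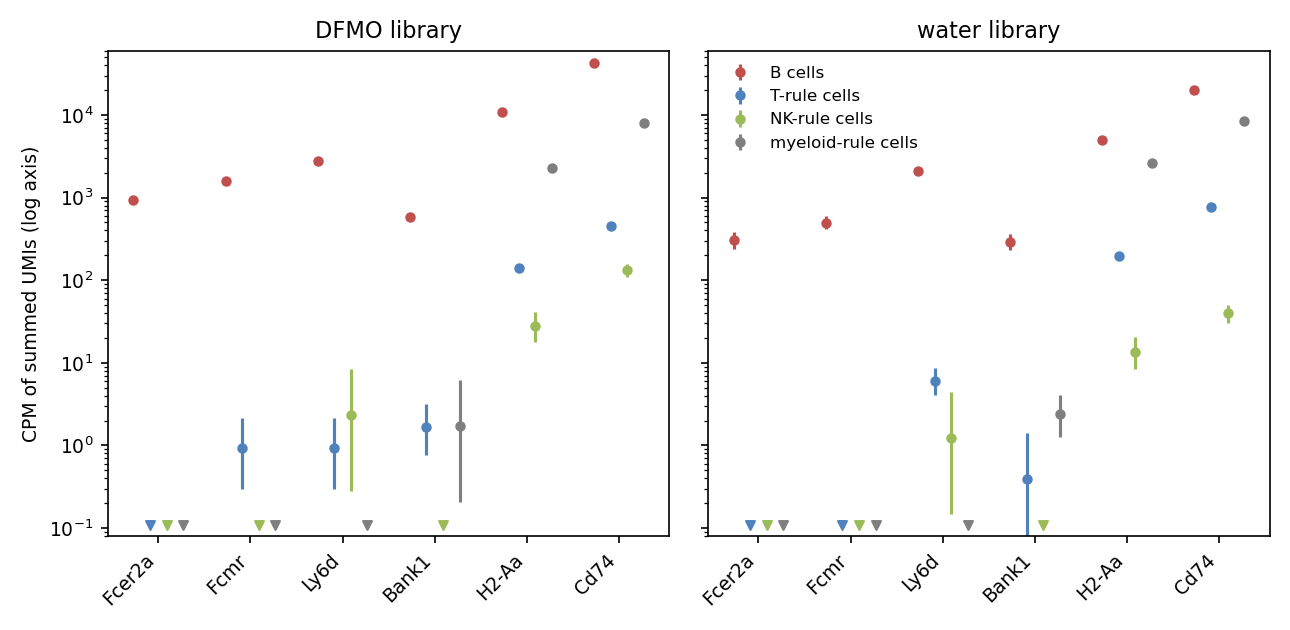
CPM of summed UMIs (log axis) for 6 genes outside the membership rule in B cells and in T-rule, NK-rule and myeloid-rule cells, by library. Bars are exact Poisson 95% intervals, and triangles at the bottom mark 0 UMIs. Fcer2a and Fcmr were near or at 0 outside the B cells, while Cd74 and H2-Aa had UMIs in all 4 kinds of cells.

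Members were not all alike, and 5 sets were formed after their values had been seen. Cells with UMIs of Col1a1, Col3a1 and Sparc of at least 5, of haemoglobin beta genes of at least 10, or of S100a8 and S100a9 of at least 10 were set apart as carrying genes of another cell type, since these mark connective or tumour tissue, red cells and neutrophils. There were 17 in DFMO (1.13%) and 9 in water (12.7%). Cells with at least 100 Jchain UMIs were called plasma-like, 1 in DFMO and 5 in water. Cells with at least 2 UMIs in the sum of 3 germinal centre genes, Mef2b and Rgs13 among them, formed the germinal centre set, 29 in DFMO (1.93%, 1.30 to 2.76) and 0 of 71 in water, where the floor of 3 counts is 4.23% and the exact interval reaches 5.06%. Another 2 DFMO cells were dividing without these genes. The main set held the rest, 1453 DFMO cells (96.7%) and 57 water cells (80.3%).

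The sets differed in depth, and so in their weight in a sum. The main set had a median of 1761 UMIs in DFMO and 1314 in water. The germinal centre set had a median of 9098 UMIs, and the plasma-like water cells 13382. In DFMO the main set gave 82.5% of all member UMIs. In water it gave 33.6%, the 9 cells with genes of another type gave 41.0%, and the 5 plasma-like cells gave 25.4%. Scrublet marked 2 DFMO members and 1 water member as doublets, although only 26.7% (DFMO) and 33.9% (water) of its simulated doublets lay above its threshold. The water member it marked carried genes of another type.

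**Figure D2:**
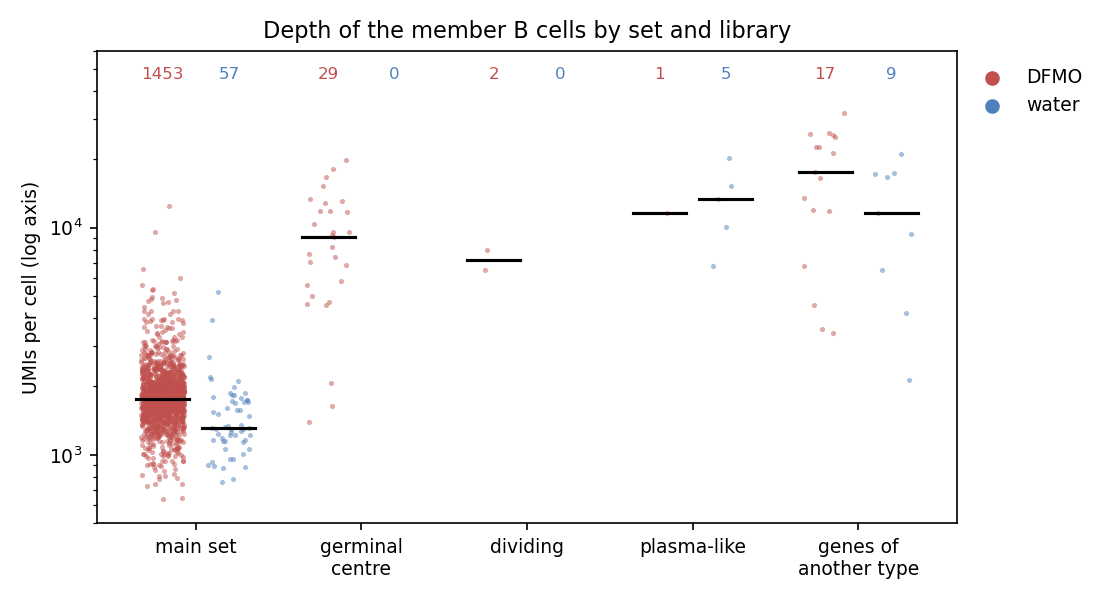
UMIs per cell (log axis) of all 1573 members by set and library. Each point is 1 cell, black lines are medians, and numbers at the top are cells. The median was 1761 UMIs in the DFMO main set and 9098 in the germinal centre set.

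The main set, from which dividing and germinal centre cells had been left out, was made up mostly of cells with transcripts of IgM and IgD. Ighm (ENSMUSG00000076617, chromosome 12, 113418558 to 113422730), the IgM heavy chain, was seen in 79.5% of the 1453 DFMO cells at 963.8 CPM (927.4 to 1001). Ighd, the IgD heavy chain, was seen in 57.2% at 516.3 CPM. The heavy chains of switched classes were rare: Ighg1 had 5 UMIs in 1 cell, Ighg2b 2 UMIs, Ighg2c 0 UMIs and Ighg3 7 UMIs, while Igha had 23 UMIs in 22 cells. Class-switched cells by the rule of at least 3 switched UMIs and more of them than of Ighm and Ighd numbered 1 in the main set. Of the 57 water cells of the set, 70.2% had Ighm and 43.9% had Ighd, at a lower depth per cell.

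Antigen presentation genes were present in almost every cell of the main set. Cd74, the invariant chain that guards the MHC class II groove, was seen in 99.9% of the DFMO cells at 48283 CPM, and H2-Aa, a chain of the class II molecule itself, in 99.7% at 12439.6 CPM. In contrast, costimulatory genes were sparse. Cd86 had UMIs in 5.02% of cells and Cd80 in 0.206% (3 cells), while Icosl, the ligand of the T cell receptor ICOS, had UMIs in 34.9%.

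The 13 genes of homing and recirculation ranged from Cxcr3, seen in 0.275% of the DFMO cells of the main set, to Klf2. Klf2, a factor that keeps lymphocytes in circulation, was seen in 94.7% of the DFMO cells of the main set at 3611 CPM. Ccr7, the receptor for lymph node chemokines, was seen in 41.1%, Cxcr5, the receptor for the follicle chemokine, in 27.7%, and S1pr1, the receptor used to leave lymphoid organs, in 24.9%. Cxcr4 was seen in 15.3% and Itgal in 7.57%. Ebf1, a factor of B cell identity, was seen in 93.6% and Pax5, another, in 16.5%. Ltb, a lymphotoxin chain, was seen in 89.3%.

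Markers of other B cell kinds varied. Cd93, a gene of immature B cells, was seen in 1.17% of the DFMO cells of the main set, although Vpreb3, also listed with immature cells, was seen in 39.4%. Of the 10 marginal zone and B1 genes, Plac8 was seen in 40.8% at 503.9 CPM, Cr2 in 25.3%, Dtx1 in 9.36%, Cd1d1 in 7.85%, Zbtb20 in 6.33%, Cd9 in 1.93%, Bhlhe41 in 1.51%, and Zbtb32, S1pr3 and Cd5 in 0.206% or less. Of the genes of atypical memory cells, Zeb2 had 103 UMIs in the DFMO main set, Fcrl5 55, Tbx21 8 and Nt5e 1, while Itgax and Itgam had 0. The regulatory cytokine gene Il10 had 3 UMIs in 2 cells, and Il6 had 0. Other listed cytokine genes had more: Tgfb1 1389 UMIs, Lta 254, Il12a 218, Tnf 217 and Ebi3 89. Lymph node stroma genes gave 1 UMI in all DFMO members and 0 in the main set, and 2 of the list's 5 genes were not in the matrix.

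The octamer, a promoter motif that POU2F factors bind with their B cell partner Pou2af1, was looked for in the promoters of B cell genes, because these genes are expressed together in the members. ATGCAAAT or its reverse ATTTGCAT (both strands, no overlap with another motif searched) was present in 1.74% of the 32851 RefSeq promoter windows and, counted by gene, in 532 of 27025 genes (1.97%), each window running from 250 bases before to 50 after a gene's start. It was found in 0 of 10 B identity and surface genes with a window (17 listed), in 2 of 14 BCR signalling genes (Blnk and Prkcb), in 1 of 7 germinal centre genes (Mef2b), in 1 of 6 immature genes (Vpreb3) and in 0 of the transcription factor, plasma and survival genes with a window. The stretches around the motif, all before the start site, are shown for Blnk, the adaptor of the B cell receptor, Vpreb3, and Mef2b, the gene most used below to find germinal centre cells (GRCm38.p6, chr19:40994284-40994411 minus strand, chr10:75948195-75948299 plus strand and chr8:70152616-70152743 plus strand), with the octamer in capitals. A match is a description of the letters and not a site of binding.
Blnk: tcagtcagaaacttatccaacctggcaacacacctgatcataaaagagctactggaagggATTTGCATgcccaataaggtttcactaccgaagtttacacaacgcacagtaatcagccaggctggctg
Vpreb3: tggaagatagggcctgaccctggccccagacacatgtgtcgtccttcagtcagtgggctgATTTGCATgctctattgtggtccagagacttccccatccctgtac
Mef2b: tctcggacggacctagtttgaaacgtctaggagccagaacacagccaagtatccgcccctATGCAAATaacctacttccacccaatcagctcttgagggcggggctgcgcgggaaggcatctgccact
Blnk was at 445.0 CPM and Vpreb3 at 349.6 CPM in the DFMO main set. Mef2b was at 10.6 CPM there and at 800.0 CPM in the germinal centre set, which the gene helped to choose.

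Within the main set, cells differed most in early response genes and in a ribosomal RNA gene model. At 1000 UMIs per cell, 1417 DFMO cells and 3266 genes with a mean of at least 0.05 UMIs were compared by the Fano factor (variance over mean). It passed 1.5 for 60 genes. Gm42418, a gene model within a ribosomal RNA unit, was highest at 27.7, with up to 260 of 1000 UMIs in a cell. It was followed by Fos (4.17), Lars2 (4.15), S100a6 (3.43), Jun (3.23), Ifi27l2a (3.17), Junb (3.16), Cd74 (3.08), Klf2 (2.94) and Apoe (2.74). Fos, Jun and Junb encode parts of the AP-1 factor, which cells induce within minutes of a stimulus. Their summed list (early activation) had a median of 20 UMIs per 1000, with 10% of cells at 7 or fewer and 10% at 38 or more. The interferon response list was at 0 in 30.2% of cells, with a median of 1 and a highest value of 22. Heat shock genes Hspa1b (Fano factor 2.69) and Hspa1a (2.52), which also mark cell handling, were seen in 3.46% and 4.59% of cells. Their part in the spread of the early genes was not tested.

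Light chains could be read from variable segments but not from constant ones. By constant segments, with 90% of the UMIs needed, 534 of 1480 DFMO members were lambda (36.1%), 3 were kappa and 943 were mixed. Iglc UMIs, from the lambda constant segments, were present in 99.6% of the DFMO members with a kappa variable segment, at a median of 9, against a median of 5 in lambda cells. By variable segments, a choice made after these values were seen, 1328 of 1481 were kappa (89.7%), 74 were lambda (5.00%, 3.94 to 6.23) and 79 were mixed. In water 3 of 70 were lambda (4.29%). How reads were shared among the lambda and kappa constant genes in counting was not analysed here, and the constant segments' values are therefore uncertain.

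The repertoire of the main set was broad. Among the 1141 DFMO cells of the main set with both a heavy and a kappa segment at 3 or more UMIs, there were 908 different pairs. Some 35.7% of cells shared their pair with another, and the most common pair, Ighv1-26 with Igkv10-96, was in 6 cells. The most used kappa segment was Igkv10-96 (71 of 1358 cells, 5.23%) and the most used heavy segment Ighv1-26 (64 of 1226, 5.22%). V segments are a family of near copies, and reads can be assigned to the wrong one.

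The 29 cells of the germinal centre set were large in RNA and mostly dividing. By the rule that also counts S1pr2, 33 DFMO (2.20%) and 4 water members (5.63%) qualified, but 4 of the DFMO cells and all 4 water cells did so by S1pr2 alone and carried genes of connective or tumour tissue. In the 29 cells, Mef2b was at 0 to 24 UMIs per cell with a median of 6, and Rgs13 at 0 to 16 with a median of 3. Both genes helped to choose the cells. In the summed DFMO members they had 242 and 115 UMIs, and in the water members 0 UMIs each. Of the DFMO UMIs, 212 of Mef2b and 112 of Rgs13 lay in the 29 cells. Water had 0 germinal centre cells among 71 members, and the interval of that share, up to 5.06%, covers the DFMO share of 1.93%. So no minimum fold between the libraries was read from these counts.

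Other germinal centre genes, not used in the rule, differed in level. Set against the DFMO main set, 2281 genes had at least 20 UMIs expected in the germinal centre set at equal level, and 291 (12.8%) were over 2-fold higher and 392 (17.2%) over 2-fold lower, around a median log2 ratio of 0.07. Against all other DFMO members by the rule with S1pr2, the counts were 300 (10.5%) and 457 (16%) of 2860. The minimum was taken from the UMIs of both groups together. Genes nearly absent from the main set therefore passed it through their germinal centre UMIs, as Basp1 did with 274 against 14 UMIs. The counts of higher genes include such genes and are a description. Basp1 was at 1034 CPM against 5.12 CPM (log2 ratio 7.66, 6.89 to 8.55). Of the 11 germinal centre genes on the list 3 passed that minimum, Mef2b and Basp1 higher and Lmo2 lower. Below the minimum, with fewer UMIs expected, Eaf2 was at 358.5 against 8.04 CPM (5.48), Fas, a death receptor that germinal centre cells display, at 147.2 against 9.87 CPM (3.90), and Bcl6, the factor that directs the germinal centre programme, at 113.2 CPM with a log2 ratio of 0.92 (0.30 to 1.49). Lmo2 was at 143.4 against 394.9 CPM (-1.46). Jchain was at 1298 against 6.95 CPM (7.55), with UMIs in 24 of 29 cells. The main set was formed without cells of at least 100 Jchain UMIs, which raises this ratio. Of the 1833 Jchain UMIs in DFMO members, 344 were in the 29 cells, and 866 and 604 were in 2 cells outside both sets.

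Of the 29 cells, 21 were dividing by the rule of at least 3 UMIs of Mki67, Top2a, Birc5, Cdk1 and Ccnb2. Pclaf, a clamp protein partner in DNA replication, was at 1241 CPM against 4.02 CPM (8.27), Ube2c, which acts in mitotic exit, at 966.0 against 6.22 CPM (7.28), and Stmn1, a microtubule regulator, at 1577 against 27.8 CPM (5.83). Hmgb2, H2afz, Cks2 and Lmnb1 were also among the 15 highest ratios, with log2 ratios of 4.23, 3.75, 4.16 and 3.80. The main set was formed without dividing cells, which raises these ratios. For the 33 cells of the rule with S1pr2 over all other DFMO members, dividing ones included, the log2 ratios were 5.69 for Pclaf, 4.41 for Ube2c and 4.11 for Stmn1. Of the 21 polyamine genes 8 passed the minimum of expected UMIs, 5 higher and 3 lower, with a median log2 ratio of 0.84. Of all 2281 genes compared 1202 were higher, and the median was 0.07. Odc1, the target of DFMO, was at 286.8 CPM against 80.1 CPM (1.84, 1.44 to 2.22), Eif5a, the factor that carries a spermidine-derived residue, at 2536 against 1004 CPM (1.34), and Sms, spermine synthase, at 241.5 against 112.3 CPM (1.11). The 3 lower polyamine genes were Slc3a2 at 75.5 against 132.4 CPM, Sat1 at 264.1 against 313.0 CPM and Dhps at 71.7 against 80.8 CPM. Gatm, a creatine synthesis enzyme, had 34 UMIs in 15 of the 29 cells and 1 UMI in the whole main set.

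Genes of recirculation were low in the germinal centre set. Of the 13 homing genes 11 passed the minimum of expected UMIs, and 11 were lower than in the main set, 9 of them over 2-fold, against the 17.2% of all genes given above, with a median of -3.59. Klf2 was at 324.5 against 3611 CPM (-3.48), Ccr7 at 34.0 against 431.5 CPM (-3.67) and Gpr183, a receptor that guides B cells to the outer follicle, at 7.55 against 131.6 CPM (-4.12, from 2 UMIs, interval -7.18 to -2.26). Cxcr5, the follicle receptor, was less far apart at 109.4 against 193.1 CPM (-0.82). Ccr6 and Cd38 had 0 UMIs against 170.4 and 193.8 CPM in the main set, at least 15.1-fold and 17.1-fold lower at the floor of 3 counts over the set. Of all 2281 genes compared 1079 were lower. All 10 MHC class II genes were lower (median -1.12), as Cd74 with 22621 against 48283 CPM. Of the 15 early activation genes 13 passed the minimum and 13 were lower, with a median of -2.21, and of the 17 identity genes 15 were lower. Ms4a1, which is part of the membership rule, was at 1336 against 1297 CPM (0.04, -0.12 to 0.20).

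**Figure D3:**
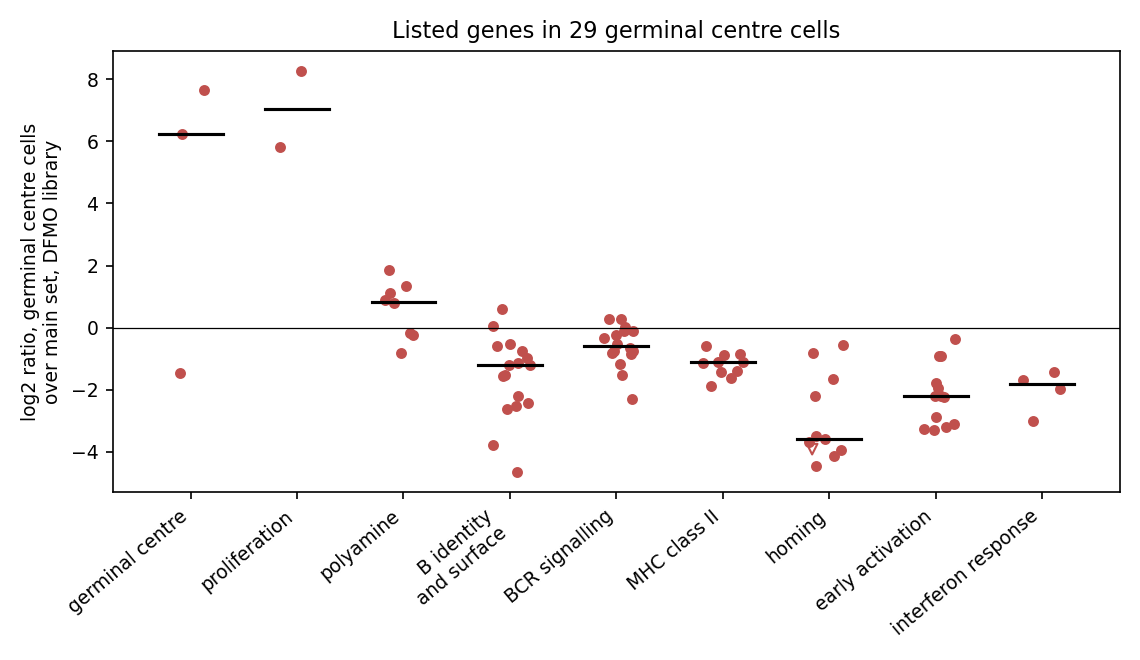
Log2 ratio of CPM in the 29 germinal centre cells over the DFMO main set for listed genes with at least 20 expected UMIs. Points are genes, lines are list medians, and the open triangle is the bound for a gene with 0 UMIs. The homing median lies at -3.59 and the MHC class II median at -1.12. Mef2b helped to choose the cells.

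The heavy chain class differed from that of the main set. Ighm was seen in 10 of the 29 germinal centre cells and Ighd in 4. Class-switched cells numbered 14 at the cells' own depth, a median of 9098 UMIs against 1761 in the main set. Ighg1 had 48 UMIs and Ighg2b 36, while Ighg2c had 6 in 1 cell. The DFMO members held 16 class-switched cells in all (1.07%), of which 14 were in this set. With every cell thinned to 1000 UMIs the share was 0.0687% (1 of 1455).

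Receptor segments were shared between germinal centre cells. Of the 29 cells, 27 had both a heavy and a kappa segment at 3 or more UMIs, and these made 14 different pairs. Of the 27, 19 (70.4%) shared their pair with another germinal centre cell. The pair Ighv1-75 with Igkv14-111 was in 6 cells and in 0 other members of either library. These cells held 5 to 23 UMIs of the heavy segment and 38 to 118 of the kappa segment, 5 of the 6 were class-switched, and together they had 32 Ighg2b UMIs and 0 Ighg1 UMIs. The pair Ighv1-64 with Igkv6-14 was in 4 cells, again in 0 other members, with 9 Ighg1 and 0 Ighg2b UMIs. Ighv1-82 with Igkv14-111 was in 3 cells and in 1 cell of the main set, and 3 other pairs were in 2 cells each. Igkv14-111 was in 10 of 29 germinal centre cells (34.5%, 17.9 to 54.3) and in 44 of 1358 cells of the main set (3.24%, 2.36 to 4.33). The largest segment held at least 90% of the heavy UMIs in 21 of the 27 cells and at least 90% of the kappa UMIs in 21. Whether cells with the same pair descend from 1 cell cannot be read from segments, since the joining sequence was not analysed here.

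The reference sequences of the segments in these pairs show how far they can be told apart. They are the first 300 bases of the heavy exons and the whole of the kappa exons, from the main coding exons of the C57BL/6 reference (GENCODE M21 on GRCm38), on the minus strand of chromosome 12 for the heavy segments (chr12:115833955-115834254 and chr12:115507550-115507849) and on chromosome 6 for the kappa segments (chr6:68256572-68256869 plus strand and chr6:70434952-70435249 minus strand). Capitals mark the bases at which the members of a couple, heavy or kappa, differ when laid side by side without gaps. They are reference letters and not read from the cells.
Ighv1-75: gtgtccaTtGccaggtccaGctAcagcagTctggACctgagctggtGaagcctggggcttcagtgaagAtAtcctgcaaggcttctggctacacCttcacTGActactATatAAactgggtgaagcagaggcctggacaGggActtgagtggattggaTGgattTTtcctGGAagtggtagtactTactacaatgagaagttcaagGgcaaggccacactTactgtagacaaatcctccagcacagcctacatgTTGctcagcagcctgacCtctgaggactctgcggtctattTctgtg
Ighv1-64: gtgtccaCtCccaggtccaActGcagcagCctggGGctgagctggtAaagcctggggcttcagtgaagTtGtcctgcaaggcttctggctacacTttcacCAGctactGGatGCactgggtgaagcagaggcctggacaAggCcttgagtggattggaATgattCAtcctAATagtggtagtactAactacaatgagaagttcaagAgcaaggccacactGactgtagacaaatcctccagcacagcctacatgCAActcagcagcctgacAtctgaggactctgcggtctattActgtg
Igkv14-111: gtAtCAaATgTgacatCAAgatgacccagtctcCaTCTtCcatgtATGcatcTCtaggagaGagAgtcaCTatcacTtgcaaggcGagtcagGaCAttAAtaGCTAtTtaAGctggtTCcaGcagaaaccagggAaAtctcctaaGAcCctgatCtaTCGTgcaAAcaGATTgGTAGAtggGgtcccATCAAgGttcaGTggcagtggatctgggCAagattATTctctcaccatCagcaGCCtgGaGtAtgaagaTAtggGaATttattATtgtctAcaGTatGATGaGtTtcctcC
Igkv6-14: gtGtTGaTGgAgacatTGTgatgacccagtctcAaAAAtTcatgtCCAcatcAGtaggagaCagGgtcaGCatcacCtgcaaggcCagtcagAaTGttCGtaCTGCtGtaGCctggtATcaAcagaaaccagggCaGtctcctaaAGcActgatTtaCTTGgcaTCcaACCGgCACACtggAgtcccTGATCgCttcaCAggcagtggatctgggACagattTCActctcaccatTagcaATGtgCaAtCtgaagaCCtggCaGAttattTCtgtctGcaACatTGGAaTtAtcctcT
The whole heavy exons differed at 35 of 305 bases (88.5% identical) and the kappa exons at 99 of 298 (66.8%). Of the stretches of 31 bases in the Igkv14-111 exon, 7.46% also occurred in another V segment, against 45.5% for Igkv6-14, 57.5% for Ighv1-75 and 62.2% for Ighv1-64. So the kappa call of the most common pair rests on more unique sequence than its heavy call.

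The plasma-like cells were few and rich in antibody transcripts. The 5 water cells had 6795 to 20272 UMIs and 245 to 964 Jchain UMIs, and V segments took 38.6% to 61.5% of their UMIs. Their heavy chains were switched in all 5. Igha led in 2, with 84 and 322 UMIs, Ighg2c in 2, with 105 and 259, and Ighg1 in 1, with 42. All 5 cells used different V pairs. Fcer2a and Fcmr had 0 UMIs in each, and Ms4a1 had 1 UMI in 1. Xbp1, the secretory factor, had 10 to 62 UMIs per cell. Ly6c2 had 6 to 371. The DFMO plasma-like cell had 11598 UMIs, 866 Jchain UMIs and 161 Ighm UMIs and no switched heavy chain. A DFMO cell with genes of another type had 604 Jchain UMIs and 77 Ighg2c UMIs. The rule needs Cd79a, Cd79b or Ms4a1, so plasma cells that had lost these genes are not counted.

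Between the libraries, the summed members differed in a way that depended on which cells were summed. Over all members, 2173 genes had at least 20 expected water UMIs, 376 (17.3%) were over 2-fold higher in DFMO and 93 (4.28%) over 2-fold lower, and the median log2 ratio was 0.39. Without receptor segments in the totals, the counts were 236 and 125 and the median moved to 0.20, and with a mean over cells they were 103 and 60. In the main set alone, 6 genes (0.954%) were over 2-fold higher and 3 (0.477%) lower of 629 compared, with a median of 0.00. By sign alone, 318 of the 629 were higher in DFMO and 311 lower.

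The lowest ratios over all members were those of the water library's deep cells. Ly6c2, a surface protein of plasma cells and monocytes, had a level of 37.1 CPM in DFMO against 2442 CPM in water (log2 ratio -6.04), and 615 of its 632 water UMIs were in the plasma-like cells. Jchain had 552.7 and 11018 CPM (-4.32), and 2850 of its 2851 water UMIs were in the same 5 cells. H19, an RNA of embryonic and tumour tissue, had 36.8 and 1886 CPM (-5.68), with all 488 water UMIs in the cells with genes of another type. Sparc and Col3a1, matrix genes, had log2 ratios of -3.78 and -3.53, with 318 of 319 and 510 of 512 water UMIs in those cells. Both genes helped to set those cells apart, and Jchain chose the plasma-like cells. So the place of the UMIs of Sparc, Col3a1 and Jchain followed largely from the rules and is a description. Slpi, a protease inhibitor, had a log2 ratio of -3.34, and 469 of its 471 water UMIs were in 1 plasma-like cell. Without that cell the log2 ratio was 4.42. The other 4 of the 10 lowest were Ccl5 (-4.07), Ly6c1 (-3.83), Ecm1 (-3.77) and Col6a1 (-3.18), and without the 1 water cell richest in it Ccl5 stood at -1.19 and Ly6c1 at -1.28.

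The highest ratios over all members came from low water counts. Basp1 had 291 UMIs in DFMO and 2 in water (3.51, 1.64 to 6.56), and 274 of the DFMO UMIs were in the germinal centre set. Sorl1, Bfsp2, Hcst, B3gnt8, Lta, Nedd9, Malt1, Haao and Pold1 followed at 2.65 to 2.40, each with 4 to 6 water UMIs.

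The 5 marker genes show the same dependence. Cd79a had 6024 CPM in DFMO against 2871 CPM in water over all members (1.07), and at 6987 and 7208 CPM in the main set (-0.05, -0.16 to 0.07). Cd79b stood at 2895 and 1534 CPM, and in the main set at 3320 and 3581 CPM (-0.11, -0.27 to 0.06). Ms4a1 stood at 1297 and 1163 CPM in the main set (0.16, -0.13 to 0.46), Fcer2a at 1104 and 875.1 CPM (0.34, 0.01 to 0.68), and Fcmr at 1883 and 1313 CPM (0.52, 0.25 to 0.80). The first 3 genes chose the members, and their levels are a description. All 17 identity genes were higher in DFMO over all members (median 1.21), with an interval above 0 for 17, while 39.3% of all genes compared had an interval above 0 and 12.3% below it, and 11 of 17 in the main set (median 0.11), where the interval excluded 0 upward for 3 and downward for 2, Cd52 (-0.35) and Ly6d (-0.45). The MHC class II genes had a median of 1.15 over all members and of 0.02 in the main set, where Cd74 stood at 48283 and 48617 CPM.

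**Figure D4:**
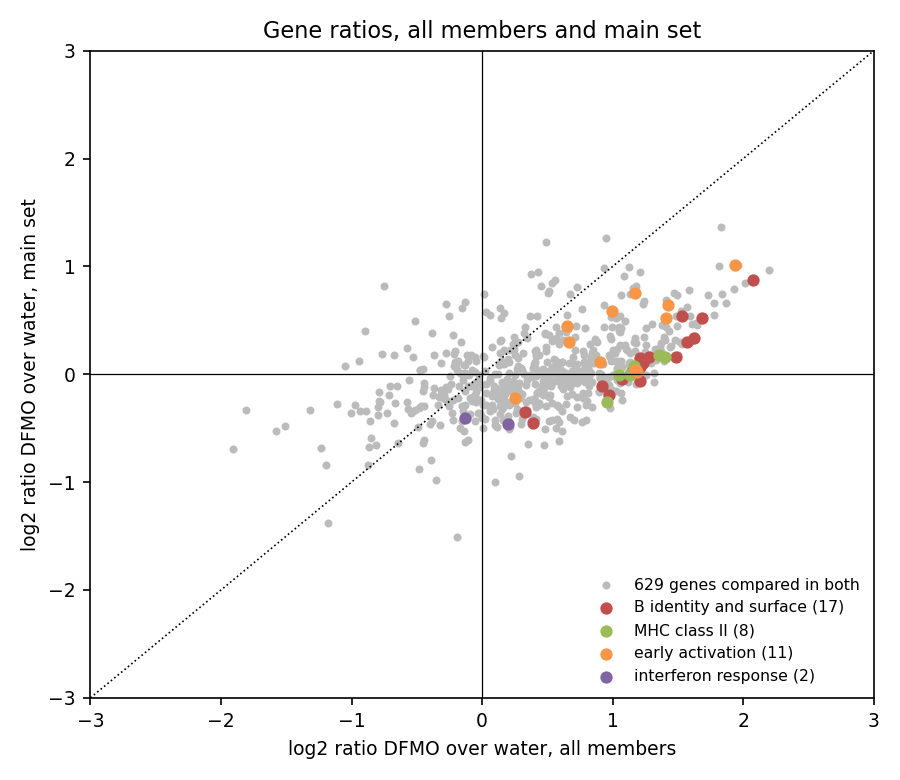
Log2 ratio of DFMO over water for 629 genes, over all members (horizontal axis) and in the main set (vertical axis). Points are genes, colours mark 4 lists with the number of genes drawn, and the dotted line marks equal values. The MHC class II and identity genes lie right of 0 on the horizontal axis, while their medians on the vertical axis are 0.02 and 0.11.

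In the main set, most of the early activation genes leaned toward DFMO. Of the 15 listed 11 could be compared, and 10 of them were higher in DFMO (median log2 ratio 0.45), against 318 of all 629 genes. The interval lay above 0 for 6 of the 11, against 10.8% of all 629 genes. Jun had 3359 CPM in DFMO against 1992 CPM in water (0.75, 0.54 to 0.98), Fos at 5406 and 3466 CPM (0.64, 0.48 to 0.81), Junb at 5462 and 3800 CPM (0.52, 0.37 to 0.69), Fosb at 348.1 and 172.7 CPM (1.01), Egr1 at 762.0 and 506.7 CPM (0.59) and Ier2 at 1303 and 955.7 CPM (0.45). Myc was lower, at 257.0 and 299.4 CPM (-0.22, -0.78 to 0.40). At 1000 UMIs per cell, the list summed to a median of 20 UMIs in 1417 DFMO cells and 10 in 48 water cells, with 9 water cells too shallow to enter. The ranges overlapped. The top 10% of cells began at 38 UMIs in DFMO and 37.3 in water, and the bottom 10% ended at 7 and 2.7. These genes respond to tissue handling, and the libraries were prepared apart, so treatment and handling cannot be told apart.

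Other lists leaned by a similar amount, leaned less or had few genes. B cell transcription factors were higher in DFMO for 8 of 9 (median 0.44), with an interval above 0 for 3: Ets1 at 439.5 and 218.8 CPM (1.01, 0.36 to 1.74), Spib at 270.6 and 138.2 CPM (0.97) and Mef2c at 838.4 and 575.8 CPM (0.54). BCR signalling genes were higher for 7 of 9 (median 0.22), survival genes for 3 of 3 (median 0.46), with Tnfrsf13c, the receptor of the survival factor BAFF, at 635.1 and 460.6 CPM. Of all 629 genes compared 318 were higher in DFMO, and 10.8% had an interval above 0. Of the 13 interferon response genes 2 could be compared, and both were lower in DFMO. Ifi27l2a stood at 1476 and 1958 CPM (-0.41, -0.63 to -0.18). Below the minimum, some listed genes were further apart. Isg15 stood at 56.7 and 287.9 CPM (-2.34, -2.96 to -1.67), with 25 water UMIs. Ifit3 stood at 31.1 and 230.3 CPM (-2.89, -3.61 to -2.11), with 20, and Bst2 at 147.4 and 322.4 CPM (-1.13), with 28. The other listed genes below it were lower too, Zbp1 by the least (-0.22, -1.29 to 1.11). At 1000 UMIs per cell the interferon list had a median of 1 UMI in DFMO and 2 in water.

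**Figure D5:**
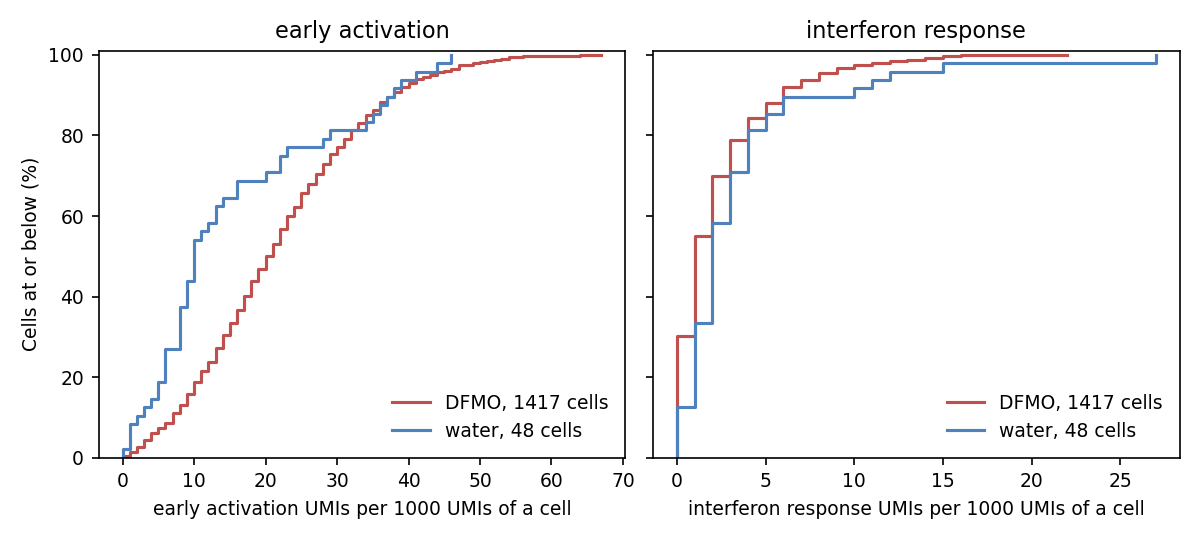
Share of main set cells (vertical axis, percent) at or below a number of list UMIs per 1000 UMIs of a cell (horizontal axis), for the early activation and interferon response lists. Each line is 1 library, with 1417 DFMO and 48 water cells. The early activation lines are apart at the middle (medians 20 and 10) and meet near 38.

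The ends of the main set's ratios held genes with many and with few water UMIs. Lowest in DFMO was Apoe, a lipid carrier, at 226.3 and 644.8 CPM (-1.51, -1.91 to -1.09), with 56 water UMIs in 20 cells. Plac8 stood at 503.9 and 1313 CPM (-1.38), but 44 of its 114 water UMIs were in 1 cell, without which the log2 ratio was -0.77. Ccr7 stood at 431.5 and 863.6 CPM (interval -1.34 to -0.64), with a log2 ratio of -0.69 without its top water cell. Dnajc7, a co-chaperone, went from -0.88 to 0.21 without 1 cell that held 30 of its 54 water UMIs. Psmb9, H2afz, Aldoa, Ly6a, Prelid1 and Rasgrp2 made up the rest of the 10 lowest, at -0.98 to -0.76, among them Ly6a with 148 water UMIs in 37 cells and Aldoa with 129 in 41. Highest were Sf1, a splicing factor, at 267.7 and 103.6 CPM (1.37, 0.44 to 2.50), Tuba1b at 441.7 and 184.2 CPM (1.26) and AY036118, a gene model within a ribosomal RNA unit, at 1135 and 483.6 CPM (1.23). Among the other genes of the 10 highest, Fosb, Ets1, Son, Slc38a2, Spib and Ncl stood at 1.01 to 0.95. In the main set, 9.22% of the 629 genes had an interval wholly below 0.

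The study's own genes, those of the urea cycle and of polyamines, ranged from absent to common in these cells. At 1000 UMIs per cell the polyamine list was at 0 in 3.67% of DFMO main set cells, with a median of 3 UMIs, and the urea cycle and arginine list was at 0 in 66.1%. Arg1, the arginase gene, had 1 UMI in all DFMO members and 0 in water members. Otc, Cps1 and Nags were not in the matrix. Ass1, which makes argininosuccinate (ENSMUSG00000076441), stood at 31.1 CPM (24.8 to 38.4) in the DFMO main set and 172.7 CPM (96.7 to 284.9) in the water main set, a log2 ratio of -2.47 (-3.28 to -1.58). The 15 water UMIs lay in 5 of 57 cells, 11 of them in 1 cell, and the 85 DFMO UMIs in 70 of 1453 cells. Thinned to 1000 UMIs, 2.82% of DFMO cells (2.02 to 3.82) and 6.25% of water cells (1.31 to 17.2) had a UMI, and these intervals overlap. In the T-rule cells, which express the gene, Ass1 was at 240.2 CPM in the DFMO library and 126.3 CPM in water, the opposite order. Asl, the next enzyme, had 30 and 2 UMIs in the main set. Oat, which uses ornithine, had 287 and 13 UMIs (-0.51, -1.31 to 0.41).

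Odc1, the enzyme DFMO blocks (ENSMUSG00000011179, chromosome 12, 17544794 to 17551505), had 219 UMIs in the DFMO main set, 80.1 CPM (69.8 to 91.4), and 4 in the water main set, 46.1 CPM (12.5 to 117.9), so no difference was detectable at this depth (log2 ratio 0.80, -0.58 to 2.69). Of the 21 polyamine genes, 3 could be compared in the main set, with a median of -0.01: Oaz1, the antizyme that inhibits Odc1, at 1459 and 1474 CPM (-0.01, -0.27 to 0.25), Eif5a at 1004 and 817.6 CPM (0.30, -0.04 to 0.66), and Sat1, which acetylates spermidine and spermine, at 313.0 and 426.1 CPM (-0.44, -0.92 to 0.07). All 3 intervals include 0. Over all members 7 could be compared, with a median of 0.28. Genes of other cell types were at low levels in the main set, in part because of how it was formed. Cells past the limits on matrix, haemoglobin beta, S100a8 and S100a9 genes had been set apart. The member rule had excluded Cd3, Ncr1 and higher Lyz2. Fibroblast and tumour genes summed to 22.3 CPM in DFMO and 46.1 CPM in water, against 273.5 and 3308 CPM over all members. Erythroid genes summed to 19.7 and 11.5 CPM, against 1235 and 2164 CPM. NK cell genes summed to 20.1 and 11.5 CPM. Endothelium genes summed to 124.0 and 57.6 CPM, with Pecam1 the highest, and were seen in 20.3% of the DFMO cells. Myeloid genes summed to 369.7 and 575.8 CPM, with S100a8, S100a9 and Lyz1 at 0 UMIs in both libraries. T cell genes summed to 371.9 and 472.1 CPM, most of it Cd2, with Cd4 and Trbc1 at 0 UMIs.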

How the data were processed

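Single-cell 5' RNA libraries of cells from MC38 tumours were processed with Cell Ranger 3.02 and Scanpy 1.4.4 on mm10, per the submitters' processing notes. The authors deposited UMI counts, not normalized, of 10720 cells and each cell's group, whose "Control" cells were taken as water. Their gene table gives total counts over 13496 cells and enters no comparison.

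Members and lists were chosen with earlier results of these data known. UMIs were summed per library and set of cells, and CPM taken over all genes. UMI counts mark transcript ends and were not divided by length. Genes with at least 20 UMIs expected at equal level, from the UMIs of both groups together, were compared. Open to naming were the 5 markers, list members of at least 50 CPM in either library, any urea cycle, polyamine, isotype, germinal centre or plasma gene with a UMI, the 10 highest and lowest DFMO over water ratios, the 20 highest ratios over other cells and the 15 highest and lowest in germinal centre cells. The text gives examples of these, and names some rare genes under 50 CPM and the most variable genes outside this rule, after their values were seen. The sets of members, the light chain call by variable segments and the germinal centre rule without S1pr2 were chosen after values were seen. Cells were thinned to 1000 UMIs for shares (seed 0), and doublets called with Scrublet (scanpy 1.11.5, rate 0.05). The ratio and its interval were tested on simulated Poisson counts. Spread between cells beyond counting was not part of that simulation. Genes such as Fos had it (Fano factor 4.17 in DFMO and 7.35 in water main set cells), so their intervals were not checked for it. TMM came from edgeR 4.0.16 in R 4.3.3. Other software was Python 3.11.15, numpy 2.4.6, scipy 1.17.1, pandas 2.3.3 and matplotlib 3.10.9. Alternatives are given with the closing section. Values of some genes are not reported here. Sequences came from RefSeq promoters (GRCm38.p6) and GENCODE M21 transcripts.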

Additional observations from a re-analysis of the deposited data

Results flagged for a closer look

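The authors' gene table covers 2776 more cells than the matrix, and its totals exceed the matrix sums for some B cell genes, a signal in data that the comparisons above do not use and above the 3 counts that a count of 0 allows. Jchain had 1763 UMIs beyond the matrix, Cd79a 21 and Cd79b 5, while Ms4a1, Fcer2a and Fcmr had 0 and Mef2b 2. Over all genes 3407042 UMIs lay beyond the matrix. Which library those cells came from was not analysed here.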

How the results depend on the processing

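No paired analysis was possible because there was only 1 library in either group. The share of members stayed within the interval of its reported value under a marker minimum of 5 UMIs, Lyz2 at 0, doublets removed and at least 500 genes per cell, in both libraries. Thinning to 1000 UMIs lowered the water share of members from 1.14% to 0.834%. It also lowered the DFMO shares by rule, of germinal centre cells from 2.20% to 0.893%, of class-switched cells from 1.07% to 0.0687% and of dividing cells from 2.06% to 0.275%, and the water shares of class-switched cells from 9.86% to 3.92% and of germinal centre cells from 5.63% to 0%. That water share was also 0% without S1pr2 and 0% without the cells with genes of another type. The DFMO lambda share was 36.1%, 39.2% thinned and 5.00% by variable segments, and the water lambda share 31.3% and 4.29%.

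Of 2-fold genes, 376 were higher and 93 lower. The counts were 236 higher with totals without receptor segments, 103 and 60 with a mean over cells, 6 and 3 in the main set, 166 and 34 without cells with genes of another type, 720 and 189 with 10 expected water UMIs, 141 and 43 with 50, and 795 and 195 at a fold of 1.5. The polyamine median of 0.28 was 0.092 with totals without receptor segments, 0.071 with a mean over cells and -0.014 in the main set, and the urea cycle median of -0.27 was -1.16, from 1 gene, without cells with genes of another type. In the main set the direction reversed for Cd79a (-0.045), Cd79b (-0.11), Slpi (0.67) and the medians of homing genes (-0.32) and B cell cytokines (-0.0031), and without cells with genes of another type for Ccl5 (0.55). Depth limits the water values: a gene needs 3 counts, or 11.6 CPM over all water members and 34.5 CPM in the water main set, to be told from 0.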
